A study of Homo sapiens with 6 samples.

Results

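The promoters of the ADAM, ADAMTS and MMP genes were examined in chromatin immunoprecipitation sequencing (ChIP-seq) data for NuMA, which the labels also call TDIF, a large nuclear protein best known for its work at the poles of the mitotic spindle. Members were the autosomal promoter windows assigned to a gene named ADAM, ADAMTS or MMP followed by digits only, which leaves out the ADAMTSL genes. There were 57 such windows among 19957 in all, 19 in each of the 3 families. The assignment was made by position, from 61 protein-coding genes of these names in RefSeq, and ADAM29, MMP2, MMP8 and MMP11 were not analysed here because no window lay within 1000 bp of their start on the same strand. Each window extends 1000 bp up and down from an annotated transcription start site (build hg38), so levels can be compared between windows without a correction for length.

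All 6 libraries came from wild type MRC5 cells, a lung fibroblast cell line, and no treatment was named in the labels. NuMA ChIP and IgG ChIP, a pull-down with a non-specific antibody, had 2 libraries each, and input chromatin had 1 library of the IgG arm and 1 of the NuMA arm. Whether the 2 libraries of a ChIP group stem from separate cultures is not stated in the labels, and the p-values below measure the spread between these libraries, which may be technical. No RNA was measured in these libraries, so the fibroblast label could not be checked against marker genes, and the level of chromatin at a promoter is not the activity of its gene. The question behind the comparison was where NuMA lies in the genome.

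The 3 families are metal-dependent proteases that work outside the cell or at its surface. ADAM proteins are anchored in the membrane and many of them cut the outer part off other membrane proteins, among them growth factors, cytokines and Notch. ADAMTS proteins are secreted, bind the matrix through thrombospondin repeats and process procollagens, proteoglycans and von Willebrand factor. MMP proteins degrade collagens and other matrix proteins, and fibroblasts are a known source of several of them during wound repair and fibrosis.

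Reference promoter sequence was at hand for 31 of the 57 members, from RefSeq on GRCh38.p14. Printed here are the 250 bases before the start, 5′ to 3′ on the gene's strand. They belong to 3 members that were higher in NuMA ChIP against input and 3 that were lower against IgG. The members were chosen after their values were seen, so that the letters of both kinds can be set side by side. The reference differs between the kinds. ADAMTS19 did not pass against IgG. MMP7, MMP20 and MMP26 did not pass against input, and their calls against IgG were lost without IgG replicate 2. Capitals mark CpG dinucleotides. The first 3 are ADAM22 (plus strand, chr7:87934001-87934250), ADAMTS18 (minus strand, chr16:77435035-77435284) and ADAMTS19 (plus strand, chr5:129460048-129460297).
ADAM22: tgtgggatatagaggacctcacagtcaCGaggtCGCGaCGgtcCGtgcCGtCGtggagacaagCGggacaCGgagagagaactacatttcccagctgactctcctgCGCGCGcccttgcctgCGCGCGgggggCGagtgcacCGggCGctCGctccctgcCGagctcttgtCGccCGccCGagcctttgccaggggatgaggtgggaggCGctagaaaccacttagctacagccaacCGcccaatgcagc
ADAMTS18: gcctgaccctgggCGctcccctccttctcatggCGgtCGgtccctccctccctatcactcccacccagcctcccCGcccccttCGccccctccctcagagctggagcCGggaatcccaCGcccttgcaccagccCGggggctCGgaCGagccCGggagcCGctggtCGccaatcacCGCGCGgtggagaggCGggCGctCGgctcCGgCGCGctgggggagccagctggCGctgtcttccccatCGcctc
ADAMTS19: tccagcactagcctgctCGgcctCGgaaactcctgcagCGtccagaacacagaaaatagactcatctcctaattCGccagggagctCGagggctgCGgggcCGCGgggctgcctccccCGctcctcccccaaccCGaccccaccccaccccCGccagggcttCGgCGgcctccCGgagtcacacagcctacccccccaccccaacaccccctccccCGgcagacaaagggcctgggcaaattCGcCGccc
The other 3 are MMP7 (minus strand, chr11:102530748-102530997), MMP20 (minus strand, chr11:102625333-102625582) and MMP26 (plus strand, chr11:4704534-4704783), all on chromosome 11.
MMP7: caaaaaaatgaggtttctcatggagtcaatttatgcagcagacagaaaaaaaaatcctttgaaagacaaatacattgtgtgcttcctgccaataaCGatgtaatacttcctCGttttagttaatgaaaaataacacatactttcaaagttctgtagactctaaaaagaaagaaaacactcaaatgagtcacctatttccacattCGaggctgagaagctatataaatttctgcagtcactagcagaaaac
MMP20: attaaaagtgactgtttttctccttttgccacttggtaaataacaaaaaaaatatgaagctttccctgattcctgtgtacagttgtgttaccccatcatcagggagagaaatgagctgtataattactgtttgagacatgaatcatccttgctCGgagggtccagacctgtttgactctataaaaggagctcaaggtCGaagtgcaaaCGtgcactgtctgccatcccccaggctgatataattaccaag
MMP26: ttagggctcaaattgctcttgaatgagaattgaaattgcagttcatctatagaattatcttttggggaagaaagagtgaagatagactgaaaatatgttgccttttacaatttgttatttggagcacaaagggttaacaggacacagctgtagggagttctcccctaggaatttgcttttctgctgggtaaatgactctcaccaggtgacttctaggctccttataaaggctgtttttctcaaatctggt
These stretches held 25 CpG dinucleotides in ADAM22, 24 in ADAMTS18 and 17 in ADAMTS19, and 3 in MMP7, 3 in MMP20 and 0 in MMP26. The median was 16 over 22198 protein-coding promoters of the same length. Other members with sequence went both ways. ADAMTS2 (40 CpG) and ADAM12 (31) were higher against IgG, and ADAM21 (1) was lower. MMP21 (6) was higher against input, and ADAMTS12 (21) was lower against input. ADAM17 (31), ADAMTS3 (30) and ADAMTS7 (29) passed neither against IgG nor against input. The TATA box letters TATAAA, searched on both strands, occurred in MMP7, MMP20 and MMP26, and also in ADAMTS10, MMP10 and MMP21. These were 6 of the 31 members with sequence, against 9.005% of all promoters. ADAMTS10 was higher against IgG (log2 fold change 1.15) and MMP21 against input (1.38). Each of these calls was lost under 5 of the alternatives. The AP-1 site TGANTCA, the binding site of the FOS and JUN proteins, was searched likewise (neither motif contains the other). It occurred in MMP7 and MMP20, and also in MMP10 and ADAMTS12. These were 4 of the 31 members, against 5.356% of all promoters. Such a match describes the letters only.

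Total promoter counts ran from 366594 in IgG ChIP replicate 2 to 1080879 in NuMA ChIP replicate 1, with 616242 in the other IgG library, 664234 in the other NuMA library, and 791361 and 729744 in the IgG and NuMA inputs. Levels are given as CPM, counts scaled to a common library size, after TMM scaling over the 6 libraries, and 1 count was worth 1.13 to 2.45 CPM. IgG ChIP replicate 2, the shallowest library, stood apart at these promoters. Over the 57 members, Pearson's r of log2 counts was 0.905 between the NuMA libraries and 0.918 between the inputs, but 0.447 between the IgG libraries, where IgG replicate 1 reached 0.801 with the IgG input and IgG replicate 2 reached 0.238. These r values describe windows of the same libraries and carry no test. The counts over members and the calls that this library ended are therefore also given without it.

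Against IgG ChIP, NuMA ChIP was higher at ADAM and ADAMTS promoters more often than lower, and lower at most MMP promoters. Of the 54 members that passed the count filter, 15 were higher and 14 lower (edgeR quasi-likelihood test, adjusted p below 0.05 over all windows), and 25 did not pass. Over all 15727 windows tested, 16.8% were higher and 23.9% lower. In ADAM, 6 of 18 were higher and 3 lower, with a median log2 fold change of 0.72. In ADAMTS, 5 of 18 were higher and 1 lower, with a median of 0.93. In MMP, 4 of 18 were higher and 10 lower, with a median of -1.79, while the median over all windows was -0.04. With each ChIP group taken relative to its own input, only 4 of these 29 calls passed, ADAM12 and ADAMTS2 higher and ADAMTS13 and MMP1 lower, against 1.16% higher and 2.35% lower of all windows in that fit, and the other 25 calls against IgG were lost. DESeq2 gave 12 higher and 6 lower, against 10.4% and 13.5% of all windows, and did not pass 14 of the 29. These were ADAM12, ADAM15, ADAM21, ADAM22, ADAM23, ADAM28, ADAM30, ADAMTS5, ADAMTS10, MMP3, MMP7, MMP12, MMP13 and MMP27. Members of a family are not replicates, so the families are set side by side without a test of their difference. The 2 NuMA libraries were both above the 2 IgG libraries at 30 members and both below them at 15, against 40.5% and 34.9% of all windows tested.

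**Figure D1:**
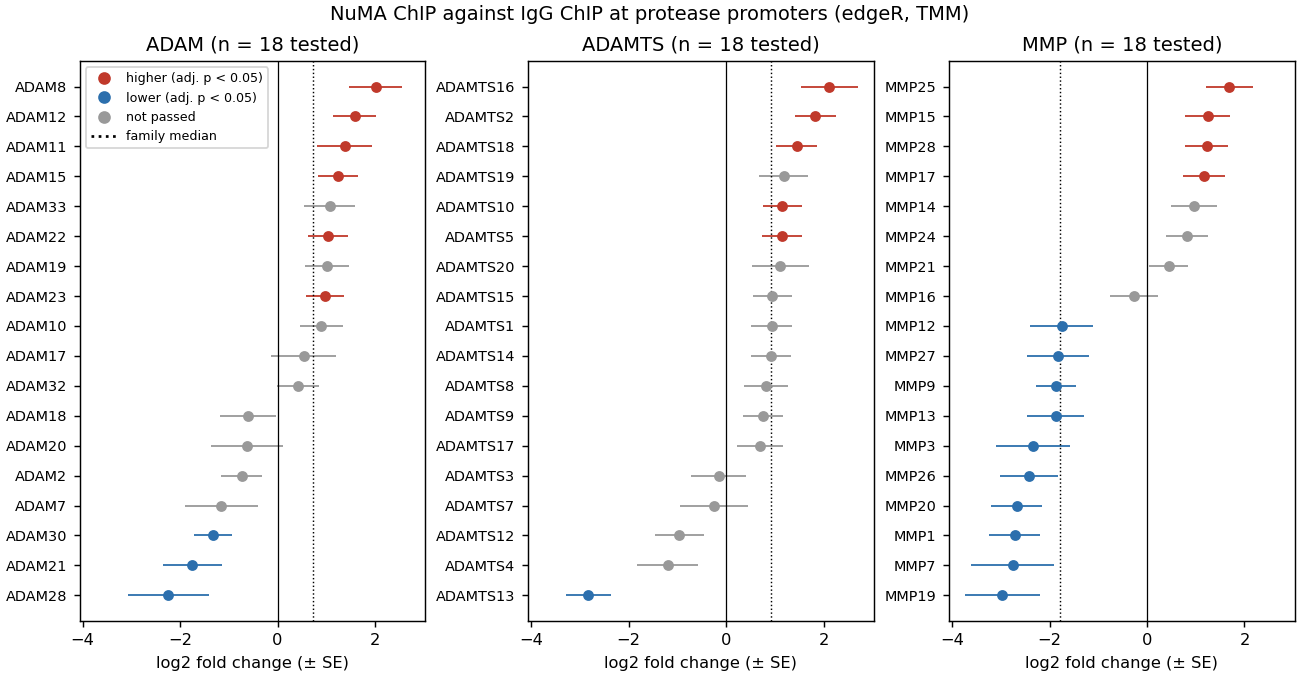
Log2 fold change of NuMA ChIP against IgG ChIP (x axis, with SE) for the 18 tested members of each family, with 1 point for each promoter, coloured by the edgeR call at an adjusted p of 0.05. The ADAM and ADAMTS medians, drawn as dotted lines, lie at 0.72 and 0.93, and the MMP median lies at -1.79, with 10 MMP promoters lower.

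The counts of a family can also be read as a share of all promoter counts in a library. ADAM promoters held 0.140% and 0.149% of the promoter counts with the NuMA antibody, 0.109% and 0.107% with IgG, and 0.100% and 0.0941% in the IgG and NuMA inputs. ADAMTS promoters held 0.223% and 0.173% with NuMA, 0.127% and 0.118% with IgG, and 0.117% and 0.119% in these inputs. For both families the 2 NuMA libraries were above the other 4. MMP promoters held 0.109% and 0.112% with NuMA, 0.108% and 0.147% with IgG, and 0.0991% and 0.108% in the inputs, and here the single high library was IgG replicate 2.

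**Figure D2:**
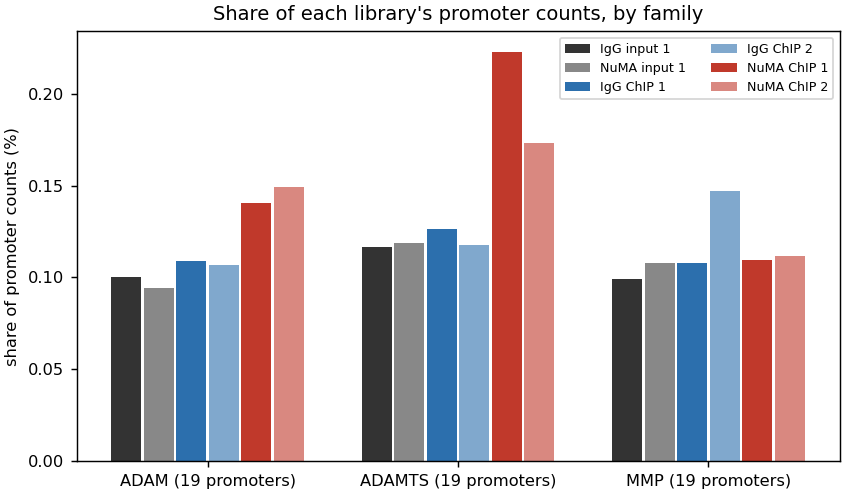
Share of each library's promoter counts, in percent, that fell on the 19 promoters of each family, with 1 bar for each of the 6 libraries. In ADAM and ADAMTS both NuMA bars are the tallest, and in MMP the tallest bar is IgG ChIP replicate 2 at 0.147%.

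The choice of scaling sets where no difference lies. When libraries were scaled on the deposited metagene signal far from the start sites, the median log2 fold change of all windows moved from -0.04 to 1.26, so that 31 members were higher and 3 lower, against 48.1% and 2.73% of all windows, and the family medians became 2.03 for ADAM, 2.20 for ADAMTS and -0.30 for MMP. The order of the 3 families was the same, and MMP stayed below the median of all windows. Leaving out IgG replicate 2 gave 6 members higher and 5 lower, against 6.58% and 12% of all windows, with 1 and 1 in ADAM, 3 and 1 in ADAMTS and 2 and 3 in MMP. Leaving out NuMA replicate 1, the deepest library, gave 4 higher and 6 lower, against 3.55% and 8.61% of all windows. The ADAM and ADAMTS medians stayed above 0 and the MMP median below 0 in each fit that left out a library, but without IgG replicate 2 the MMP median was only -0.33.

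Among the ADAM genes, those that encode membrane sheddases held the largest differences. Of 8 tested, 3 were higher and 1 lower, against 16.8% and 23.9% of all windows, and the median log2 fold change was 1.04. ADAM8, a sheddase best known from leukocytes (chr10:133275869-133277869), measured 74.6 and 71.0 CPM with the NuMA antibody, 21.2 and 9.82 with IgG and 39.6 and 37.7 in the IgG and NuMA inputs. Both NuMA libraries were above the other 4, and the IgG libraries were the lowest. Its log2 fold change against IgG was 2.01 ± 0.54 (SE), a 4.04-fold difference with an adjusted p of 0.00282, and against input it was 0.91 ± 0.47 (adjusted p = 0.132), which did not pass. The call against IgG was lost without NuMA replicate 1, at 1.99, and relative to each group's own input (adjusted p = 0.114).

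ADAM12, a sheddase of growth factors in mesenchymal and muscle cells (chr10:126387456-126389456), measured 152 and 118 CPM with the NuMA antibody, 71.8 and 4.91 with IgG and 64.4 and 37.7 in the IgG and NuMA inputs. NuMA ChIP was above both IgG libraries and both inputs, yet the IgG libraries differed widely, and IgG replicate 2 held only 2 counts. The log2 fold change was 1.58 ± 0.44 (adjusted p = 0.00355), and the call was lost without IgG replicate 2 (0.90) or without NuMA replicate 1 (1.38). Against input the promoter was also higher, by 1.45 ± 0.41 (adjusted p = 0.00361), and this was lost without NuMA replicate 1 (1.11) or the NuMA input (1.06). ADAM15, which carries an integrin-binding motif, measured 91.2 and 112 CPM with the NuMA antibody, 45.7 and 29.5 with IgG and 73.5 and 66.0 in the IgG and NuMA inputs. It was higher against IgG by 1.24 ± 0.41 (adjusted p = 0.0139) and not against input (0.54 ± 0.40, adjusted p = 0.329), where its IgG libraries lay below the inputs. For ADAM15 the call was lost without IgG replicate 2 (1.13), NuMA replicate 1 (1.38) or NuMA replicate 2 (1.17).

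The 2 sheddases with the broadest known roles did not pass. ADAM10, which cuts Notch receptors, measured 74.6 and 79.5 CPM with the NuMA antibody and 32.6 and 41.7 with IgG, without overlap, and gave 0.90 ± 0.44 (adjusted p = 0.0920). ADAM17, the enzyme that releases tumour necrosis factor, measured 30.8 and 47.3 CPM with the NuMA antibody, 22.8 and 24.5 with IgG and 45.2 and 76.6 in the IgG and NuMA inputs, and gave 0.54 ± 0.67 (adjusted p = 0.516). For ADAM19, another mesenchymal sheddase, the log2 fold change was 1.01 ± 0.45 against IgG (adjusted p = 0.0606) and -0.00 against input. ADAM33, an asthma susceptibility gene of airway mesenchyme, missed the threshold against IgG (1.07 ± 0.52, adjusted p = 0.0884) and was higher against input (1.47 ± 0.54, adjusted p = 0.0267). That call was lost without NuMA replicate 1 (1.03), the NuMA input (1.24) or the IgG input (1.48). ADAM28, a protease of lymphocytes and epithelia, was the lowest of the tested ADAM promoters at 7.10 and 10.1 CPM with the NuMA antibody and 26.1 and 46.6 with IgG, a log2 fold change of -2.24 ± 0.84 (adjusted p = 0.0270) that rested on 6 counts in each NuMA library. It was lost whichever of the 4 pull-down libraries was left out, at -2.46 and -1.61 without IgG replicates 1 and 2, and at -2.00 and -2.42 without NuMA replicates 1 and 2. ADAM9 was not tested, with 1 count in IgG replicate 2 and 0 in the other 5 libraries. Its window shares 1958 bp with that of TM2D2.

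ADAM11, ADAM22 and ADAM23, which lack an active protease site and act as adhesion proteins of the nervous system, were higher in 3 of 3 against IgG and in 3 of 3 against input. Of all windows, 16.8% were higher against IgG and 17.2% against input. ADAM11 (chr17:44758030-44760030) measured 367 and 343 CPM with the NuMA antibody, 144 and 101 with IgG and 135 and 116 in the IgG and NuMA inputs. ADAM22 (chr7:87933142-87935142), a receptor of the synaptic protein LGI1, measured 152 and 103 CPM with the NuMA antibody, 78.3 and 31.9 with IgG and 28.3 and 38.9 in the IgG and NuMA inputs. At both promoters the NuMA libraries were above the other 4. The log2 fold changes against IgG were 1.38 ± 0.56 for ADAM11, 1.03 ± 0.41 for ADAM22 and 0.98 ± 0.40 for ADAM23, with adjusted p-values of 0.0425, 0.0350 and 0.0416. Against input they were 1.51 ± 0.58, 1.94 ± 0.43 and 1.14 ± 0.41, with adjusted p-values of 0.0350, 1.55e-04 and 0.0235. Without IgG replicate 2, 0 of 3 passed against IgG in edgeR, at 1.29, 0.69 and 0.87. The calls of ADAM22 (0.71) and ADAM23 (0.76) were lost without NuMA replicate 1, and that of ADAM11 (1.78) without IgG replicate 1. Against input, ADAM11 lost its call without either input (1.40 without that of NuMA and 1.40 without that of IgG), and so did ADAM23 (1.17 and 0.89), which also lost it without NuMA replicate 1 (0.79).

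The ADAM genes expressed mainly in testis or epididymis, ADAM2, ADAM7, ADAM18, ADAM20, ADAM21, ADAM30 and ADAM32, gave no higher call against IgG. In edgeR 0 of 7 were higher (0 at an unadjusted p below 0.05, and 0 with DESeq2) and 2 were lower, against 16.8% and 23.9% of all windows. The median log2 fold change was -0.74, which became 0.63 under the scaling on distant signal. ADAM30 measured 34.3 and 65.9 CPM with the NuMA antibody, 111 and 108 with IgG and 45.2 and 34.2 in the IgG and NuMA inputs. Its NuMA libraries lay below the IgG libraries and overlapped the inputs, with -1.32 ± 0.40 against IgG (adjusted p = 0.00681). ADAM21 measured 17.8 and 20.3 CPM with the NuMA antibody, 35.9 and 78.6 with IgG and 12.4 and 20.0 in the IgG and NuMA inputs, and was lower by -1.75 ± 0.60 (adjusted p = 0.0169). Both calls were lost without NuMA replicate 1 (-0.90 for ADAM30 and -1.66 for ADAM21), and that of ADAM21 also without IgG replicate 2 (-0.93) or NuMA replicate 2 (-1.76). Against input all 7 had a log2 fold change above 0 in both pull-downs, with medians of 0.96 in NuMA ChIP and 1.51 in IgG ChIP. ADAM32 was the only one of them that passed against input in NuMA ChIP, at 179 and 118 CPM with the NuMA antibody, 97.9 and 101 with IgG and 39.6 and 36.5 in the IgG and NuMA inputs. The difference from input was 1.97 ± 0.45 (adjusted p = 2.63e-04), while that from IgG was 0.43 ± 0.43 (adjusted p = 0.419).

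ADAMTS16 (chr5:5139329-5141329) held the largest difference from IgG of any member that was higher. It measured 516 and 277 CPM with the NuMA antibody, 83.2 and 81.0 with IgG and 93.8 and 63.6 in the IgG and NuMA inputs. The 4 libraries without the NuMA antibody lay close together and both NuMA libraries stood far above them. The log2 fold change was 2.12 ± 0.59, a 4.34-fold difference (adjusted p = 0.00361), and by mean NuMA level the window was at percentile 99.54 of the tested windows. The call against IgG was lost when IgG replicate 1 (2.26) or IgG replicate 2 (2.24) was left out, and relative to each group's own input (2.83). ADAMTS16 forms a close pair with ADAMTS18, and ADAMTS17 with ADAMTS19, and their substrates are less well known than those of other ADAMTS enzymes.

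ADAMTS18 (chr16:77434115-77436115) measured 174 and 108 CPM with the NuMA antibody, 48.9 and 44.2 with IgG and 29.4 and 34.2 in the IgG and NuMA inputs, and was higher against IgG by 1.45 ± 0.41 (adjusted p = 0.00459), a call lost without NuMA replicate 1 (1.04). ADAMTS19 (chr5:129459264-129461264) measured 336 and 176 CPM with the NuMA antibody, 117 and 85.9 with IgG and 40.7 and 43.6 in the IgG and NuMA inputs. ADAMTS17 (chr15:100341006-100343006) measured 244 and 150.5 CPM with the NuMA antibody, 114 and 106 with IgG and 47.5 and 42.4 in the IgG and NuMA inputs. For ADAMTS17 and ADAMTS19 the IgG libraries were also above the inputs, and their differences from IgG, 0.69 ± 0.47 (adjusted p = 0.222) and 1.18 ± 0.51 (adjusted p = 0.0530), did not pass. Against input all 4 of these genes were higher, by 2.36 ± 0.58 for ADAMTS16, 2.14 ± 0.48 for ADAMTS17, 2.16 ± 0.43 for ADAMTS18 and 2.60 ± 0.52 for ADAMTS19. The adjusted p-values were 7.20e-04, 2.35e-04, 3.16e-05 and 3.24e-05, and each of these 4 calls passed under all 9 alternatives run for that comparison.

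Among the enzymes that remove the amino-terminal propeptide of procollagens, ADAMTS2 was higher and ADAMTS3 and ADAMTS14 did not pass. ADAMTS2, the main procollagen I propeptidase of skin (chr5:179344431-179346431), measured 155 and 161 CPM with the NuMA antibody, 50.6 and 27.0 with IgG and 88.2 and 64.8 in the IgG and NuMA inputs. The NuMA libraries lay close together and above all others, and the IgG libraries were below both inputs. The log2 fold change against IgG was 1.83 ± 0.42 (adjusted p = 5.56e-04), it passed under all 12 alternatives run, and it ranged from 1.26 to 3.10 over them. Against input the difference was smaller, 1.06 ± 0.42 (adjusted p = 0.0420), and was lost under all 9 alternatives. Its values were 0.94 without NuMA replicate 1, 1.06 without NuMA replicate 2, 0.83 without the NuMA input and 1.06 without the IgG input. ADAMTS14 gave 0.92 ± 0.40 (adjusted p = 0.0569) and ADAMTS3 gave -0.15 ± 0.57 (adjusted p = 0.845).

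The 7 enzymes that cut aggrecan, versican and related proteoglycans gave 1 higher call against IgG, where 16.8% of all windows were higher. Against input they gave 4 higher and 1 lower, where 17.2% and 11.9% of all windows were. ADAMTS5, the chief cartilage aggrecanase, measured 117 and 96.4 CPM with the NuMA antibody, 42.4 and 44.2 with IgG and 48.6 and 33.0 in the IgG and NuMA inputs, and was higher by 1.15 ± 0.40 (adjusted p = 0.0193), which was lost without IgG replicate 1 (1.24) or NuMA replicate 1 (0.98). Its neighbour ADAMTS1, whose window lies 121.1 kb away on chromosome 21, gave 0.93 ± 0.42 (adjusted p = 0.0658) at 91.2 and 79.5 CPM with the NuMA antibody. ADAMTS20 held the second highest NuMA level of the family, 427 and 314 CPM, but its IgG libraries were high too, at 169.6 and 137 CPM. It passed against input (2.17 ± 0.60, adjusted p = 0.00254) and not against IgG (1.11 ± 0.58, adjusted p = 0.113). ADAMTS9 and ADAMTS15 likewise passed only against input, at 1.11 ± 0.42 and 1.30 ± 0.41 (adjusted p = 0.0320 and 0.0102). All 4 calls against input that were higher were lost without the NuMA input, at 1.13 for ADAMTS5, 1.98 for ADAMTS20, 1.11 for ADAMTS9 and 1.41 for ADAMTS15. Those of ADAMTS5 (1.12), ADAMTS9 (0.70) and ADAMTS15 (0.99) were lost without NuMA replicate 1, and those of ADAMTS9 (0.89) and ADAMTS15 (0.95) without the IgG input.

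ADAMTS4, the other main aggrecanase, went the opposite way, with 24.9 and 18.6 CPM with the NuMA antibody, 53.8 and 36.8 with IgG and 47.5 and 64.8 in the IgG and NuMA inputs. It was lower against input by -1.33 ± 0.52 (adjusted p = 0.0378) and did not pass against IgG (-1.20 ± 0.63, adjusted p = 0.112). The cartilage matrix protease ADAMTS12 had the same pattern, -1.14 ± 0.45 against input (adjusted p = 0.0407) and -0.96 ± 0.51 against IgG (adjusted p = 0.114). Under the scaling on distant signal, the difference from IgG was above 0 for both, at 0.07 and 0.33. Their calls against input were lost without NuMA replicate 1 (-1.71 for ADAMTS4 and -1.35 for ADAMTS12), NuMA replicate 2 (-1.13 and -1.06) or the NuMA input (-1.11 and -1.09). ADAMTS10, which binds fibrillin, was higher against IgG by 1.15 ± 0.40 (adjusted p = 0.0178), which was lost without IgG replicate 2 (1.18) or NuMA replicate 1 (0.99). Its relative ADAMTS6 was not tested, at 4.74 and 6.76 CPM with the NuMA antibody and 3.26 and 41.7 with IgG. The counts of ADAMTS7, 23.7 and 30.4 CPM in NuMA ChIP, are uncertain, since the gene has near-identical pseudogene copies and its window shares 1055 bp with another.

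ADAMTS13, the enzyme that trims von Willebrand factor in blood (chr9:133413357-133415357), was the only ADAMTS promoter that was lower against IgG. It measured 17.8 and 13.5 CPM with the NuMA antibody, 103 and 101 with IgG and 90.4 and 88.4 in the IgG and NuMA inputs. The IgG and input libraries lay close together, and both NuMA libraries were far below them. The log2 fold change was -2.83 ± 0.47 against IgG (adjusted p = 4.46e-06) and -2.48 ± 0.47 against input (adjusted p = 1.52e-05), while IgG itself differed from input by 0.19 ± 0.40 (adjusted p = 0.848). By input level this window was at percentile 90.86 of those tested. The call passed under all 12 alternatives against IgG and all 9 against input.

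**Figure D3:**
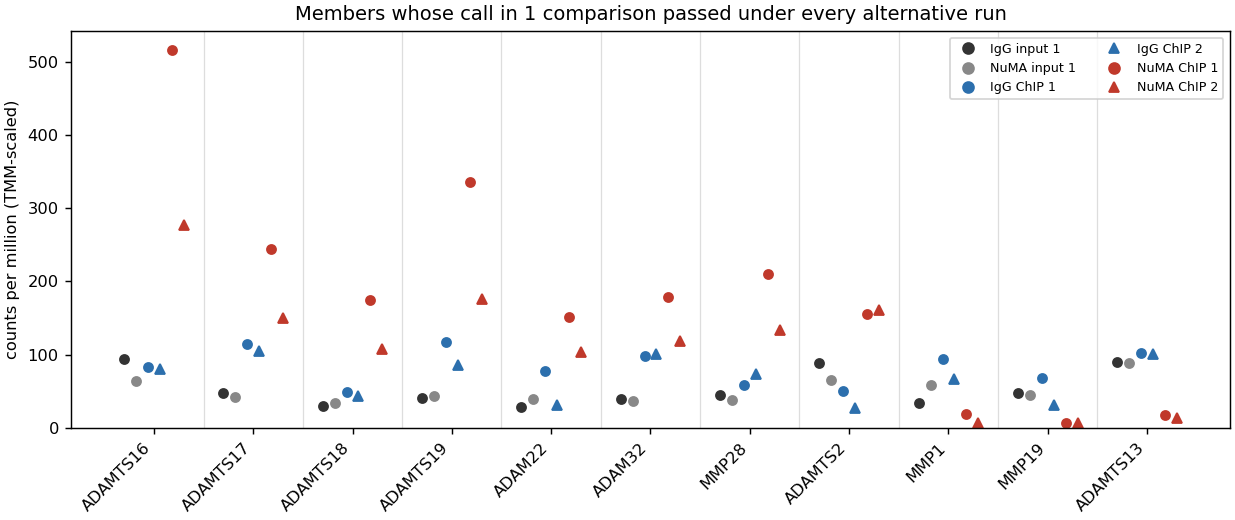
TMM-scaled CPM in each of the 6 libraries (y axis) at the 11 members whose call in at least 1 comparison passed under every alternative run, a list made after the values were seen. NuMA ChIP, in red, lies above the other libraries at the 8 promoters on the left and below them at MMP1, MMP19 and ADAMTS13.

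Among the MMP genes, those whose products are anchored in the membrane were higher in 3 of 6 and lower in 0 of 6 against IgG. At an unadjusted p below 0.05 in edgeR 0 were lower, and 0 with DESeq2. Of all windows, 16.8% were higher and 23.9% lower. The median log2 fold change of these 6 was 1.07. MMP25, a glycolipid-anchored enzyme of neutrophils (chr16:3045680-3047680), measured 259 and 216 CPM with the NuMA antibody, 75.0 and 56.5 with IgG and 79.1 and 95.5 in the IgG and NuMA inputs. Its NuMA libraries were above the other 4. The difference from IgG was 1.69 ± 0.48 (adjusted p = 0.00434). MMP15 and MMP17 were higher by 1.24 ± 0.46 and 1.17 ± 0.44 (adjusted p = 0.0256 and 0.0273). MMP14, the membrane protease that activates secreted gelatinase on fibroblasts, measured 68.7 and 69.3 CPM with the NuMA antibody, 37.5 and 24.5 with IgG and 69.0 and 77.8 in the IgG and NuMA inputs. Its NuMA libraries lay close to the inputs and only the IgG libraries were lower, with 0.97 ± 0.47 against IgG (adjusted p = 0.0865) and -0.09 ± 0.41 against input (adjusted p = 0.898). MMP28, a secreted enzyme also named epilysin, measured 209.5 and 134 CPM with the NuMA antibody, 58.7 and 73.6 with IgG and 45.2 and 37.7 in the IgG and NuMA inputs, and was higher against IgG by 1.23 ± 0.44 (adjusted p = 0.0210) and against input by 2.06 ± 0.44 (adjusted p = 1.09e-04). Relative to each group's own input, 0 of the 6 membrane-anchored members passed in edgeR (0 at an unadjusted p below 0.05), with MMP25 at 1.57. The calls of MMP25 (1.65) and MMP15 (0.98) against IgG were lost without IgG replicate 2, and those of MMP17 (1.14) and MMP28 (1.19) without IgG replicate 1. When NuMA replicate 1 was left out, MMP15 (1.13), MMP17 (1.10) and MMP28 (0.85) did not pass.

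MMP19 (chr12:55841967-55843967), a secreted protease of vessels and skin, held the largest difference of any member that was lower. It measured 7.10 and 6.76 CPM with the NuMA antibody, 68.5 and 31.9 with IgG and 47.5 and 44.8 in the IgG and NuMA inputs. Both NuMA libraries were below the other 4, although the IgG libraries differed from each other and the NuMA levels rested on 6 and 4 counts. The log2 fold change was -2.97 ± 0.77 against IgG (adjusted p = 0.00190) and -2.70 ± 0.67 against input (adjusted p = 7.68e-04). MMP9, the gelatinase of inflammatory cells (chr20:46007907-46009907), measured 26.0 and 50.7 CPM with the NuMA antibody, 158 and 85.9 with IgG and 76.9 and 69.5 in the IgG and NuMA inputs. It was lower against IgG by -1.87 ± 0.41 (adjusted p = 2.95e-04), with the NuMA libraries also below the inputs, by -0.96 ± 0.44 (adjusted p = 0.0817, not passed). MMP26, the smaller of the matrilysins, measured 15.4 and 11.8 CPM with the NuMA antibody, 52.2 and 81.0 with IgG and 26.0 and 21.2 in the IgG and NuMA inputs, and was lower by -2.42 ± 0.59 (adjusted p = 0.00107), a call lost without IgG replicate 2 (-1.93). When IgG replicate 1 was left out, the calls of MMP19 (-2.20) and MMP9 (-1.22) against IgG were lost, and that of MMP9 was also lost without NuMA replicate 1 (-1.44).

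The remaining MMP promoters that were lower against IgG lie side by side on chromosome 11. The windows of MMP7, MMP20, MMP27, MMP10, MMP1, MMP3, MMP12 and MMP13 span 427.0 kb, from 102529754 to 102956735, and neighbours in this stretch are 17.5 to 94.6 kb apart. They encode a matrilysin (MMP7), an enamel protease (MMP20), stromelysins (MMP3 and MMP10), collagenases (MMP1 and MMP13), the elastase of macrophages (MMP12) and MMP27. Of the 8, 7 passed the count filter and all 7 were lower against IgG, where 23.9% of all windows were lower. The median log2 fold change was -2.34. DESeq2 passed 2 of the 7, the scaling on distant signal 1 of 7, with a median of -0.88, and the fit relative to each group's own input 1 of 8, with a median of -2.52. The 11 MMP promoters elsewhere gave 4 higher and 3 lower calls, against 16.8% and 23.9% of all windows, and a median of 0.82.

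The level of IgG replicate 2 moved with this result. The mean over the 8 windows was 83.8 CPM in IgG replicate 2 and 33.4 in IgG replicate 1, against 19.1 and 24.3 in the inputs and 12.6 and 15.6 in the NuMA libraries. Without IgG replicate 2, 1 of the 7 calls, MMP1, passed, and the median became -1.14. Without IgG replicate 1, 7 passed among 8 tested. The part of IgG replicate 2 in the lower calls beyond these values was not tested. Against input, IgG ChIP was above 0 at all 8, with a median of 1.42, and NuMA ChIP had a median of -0.63 with 1 lower call.

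MMP1, the interstitial collagenase (chr11:102797161-102799161), was that call and measured 18.9 and 6.76 CPM with the NuMA antibody, 94.6 and 66.3 with IgG and 33.9 and 58.9 in the IgG and NuMA inputs. Both NuMA libraries lay below the other 4, and IgG replicate 1, not replicate 2, was the highest. The log2 fold change was -2.72 ± 0.53 against IgG (adjusted p = 5.96e-05) and -1.72 ± 0.53 against input (adjusted p = 0.00770). It passed under all 11 alternatives that gave it a value against IgG, with a range from -3.70 to -1.44. Its call against input was lost under 4 of 9 alternatives, among them the fits without the NuMA input (-1.33) and without NuMA replicate 2 (-1.21).

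The other members of this stretch rested on few counts. MMP20 (chr11:102624333-102626333) measured 16.6 and 13.5 CPM with the NuMA antibody, 40.8 and 135 with IgG and 18.1 and 20.0 in the IgG and NuMA inputs, so that NuMA ChIP lay just below the inputs and IgG replicate 2 far above them. Its log2 fold change was -2.68 ± 0.52 against IgG (adjusted p = 6.10e-05) and -0.32 ± 0.60 against input (adjusted p = 0.722). MMP7 (chr11:102529754-102531754) had 0 counts in NuMA replicate 1 and 16.9 CPM in NuMA replicate 2, with 29.4 and 63.8 CPM with IgG. All its NuMA counts, 10 in number, came from NuMA replicate 2. The fitted value was -2.76 ± 0.85 (adjusted p = 0.00807) and ranged from -7.92 to -1.39 over the 11 alternatives that gave one. MMP3 measured 16.6 and 3.38 CPM with the NuMA antibody and 22.8 and 73.6 with IgG, and gave -2.34 ± 0.76 (adjusted p = 0.0121). MMP13 measured 14.2 and 23.7 CPM with the NuMA antibody and 40.8 and 81.0 with IgG, and gave -1.87 ± 0.59 (adjusted p = 0.00905). At MMP12 and MMP27 the groups overlapped. MMP27 measured 21.3 and 16.9 CPM with the NuMA antibody against 9.79 and 113 with IgG, so that its lower call of -1.82 ± 0.63 (adjusted p = 0.0172) turned to 0.94 without IgG replicate 2. MMP12 gave -1.75 ± 0.65 (adjusted p = 0.0264), which became -0.21 without that library. The other 4 calls were lost without it too, at -1.43 for MMP20, -1.90 for MMP7, -1.14 for MMP3 and -1.14 for MMP13. When NuMA replicate 1 was left out, MMP7 (-1.62), MMP13 (-1.52), MMP12 (-1.18) and MMP27 (-2.01) did not pass, and when NuMA replicate 2 was left out, MMP3 (-1.62) and MMP27 (-1.59) did not. MMP10, not tested, measured 2.37 and 16.9 CPM with the NuMA antibody and 8.15 and 49.1 with IgG.

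**Figure D4:**
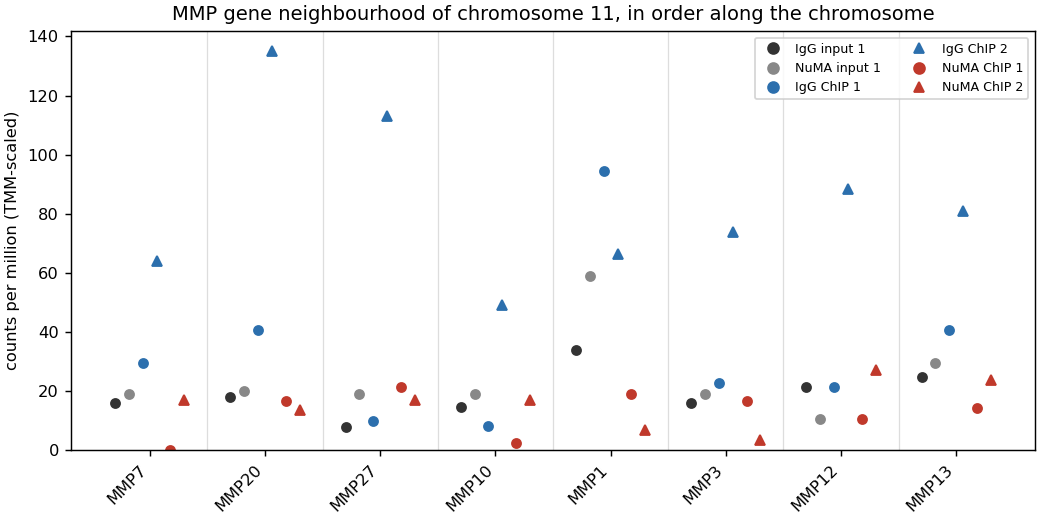
TMM-scaled CPM in each of the 6 libraries (y axis) at the 8 MMP promoters of chromosome 11 in their order along the chromosome. IgG ChIP replicate 2 (blue triangles) is the highest library at 7 of the 8, all but MMP1, and the NuMA libraries (red) lie between 0 and 27.0 CPM.

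Input coverage varied with the difference from IgG. Over the 54 members tested, Pearson's r between log2 input level and the log2 fold change was 0.54, and over all windows it was 0.33. Within families it was 0.70 for ADAM, -0.05 for ADAMTS and 0.68 for MMP, over 18 promoters each. Of the MMP promoters at or below the median input of 53.1 CPM, 9 of 11 were lower and 1 was higher. Of all windows at that level, 29.3% were lower and 12.2% higher. All 7 lower calls of the chromosome 11 stretch were among these MMP promoters. Above that median, 3 of 7 MMP promoters were higher and 1 was lower, against 21.4% and 18.6% of all windows at that level. For ADAMTS the median log2 fold change was 0.88 below and 0.93 above that level. Without IgG replicate 2, 2 of the 11 MMP promoters at or below that level were lower and 1 was higher, against 10.2% of such windows lower. Pearson's r was then 0.31 over the 54 members and 0.19 over all windows, and 0.55 for ADAM, -0.03 for ADAMTS and 0.31 for MMP. These values describe promoters of the same 6 libraries, and the part of input coverage in the calls was not tested.

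The 2 comparisons with input use the same 2 input libraries, so their values are given side by side and not as separate evidence. NuMA ChIP was higher than input at 20 of 56 members and lower at 5, against 17.2% and 11.9% of 17226 windows. Without regard to the test, the NuMA libraries were both above the inputs at 30 members and both below at 12, against 36.6% and 34.7% of all windows. By family, 6 ADAM promoters were higher and 0 lower of 18 (0 lower at an unadjusted p below 0.05, and 0 with DESeq2). In ADAMTS 9 were higher and 3 lower of 19, and in MMP 5 were higher and 2 lower of 19. The median log2 fold changes were 0.94, 0.88 and -0.32. The MMP balance turned with total-count scaling, to 2 higher and 4 lower, against 10.8% and 19.2% of all windows. It was 1 and 2 with the NuMA input alone as the reference, without the IgG input or without NuMA replicate 1. Without the NuMA input, 2 ADAM promoters were higher, ADAMTS gave 4 higher and 1 lower, and MMP 2 and 1. IgG ChIP was higher than input at 1 member, MMP20 (2.17 ± 0.55, adjusted p = 0.0368), against 0.238% of all windows, and that call was lost without IgG replicate 2 (1.10), the NuMA input (2.23) or the IgG input (2.02). It was lower at 0 members at an adjusted p below 0.05 in edgeR, against 0.0639% of all windows, and at 0 in DESeq2. At an unadjusted edgeR p below 0.05, 12 members were higher and 5 lower. The share of all windows at that unadjusted level was not computed, so these counts have no reference. The IgG libraries were both above the inputs at 24 members and both below at 12, against 29.8% and 23.6% of all windows. Without the NuMA input, NuMA ChIP was higher at 8 members and lower at 2, against 7.28% and 6.43% of all windows. The counts were 10 and 5 without the IgG input (7.79% and 10.9% of all windows), 9 and 3 without NuMA replicate 1 (7.95% and 5.57%), and 21 and 4 without NuMA replicate 2 (18.5% and 10.6%).

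**Figure D5:**
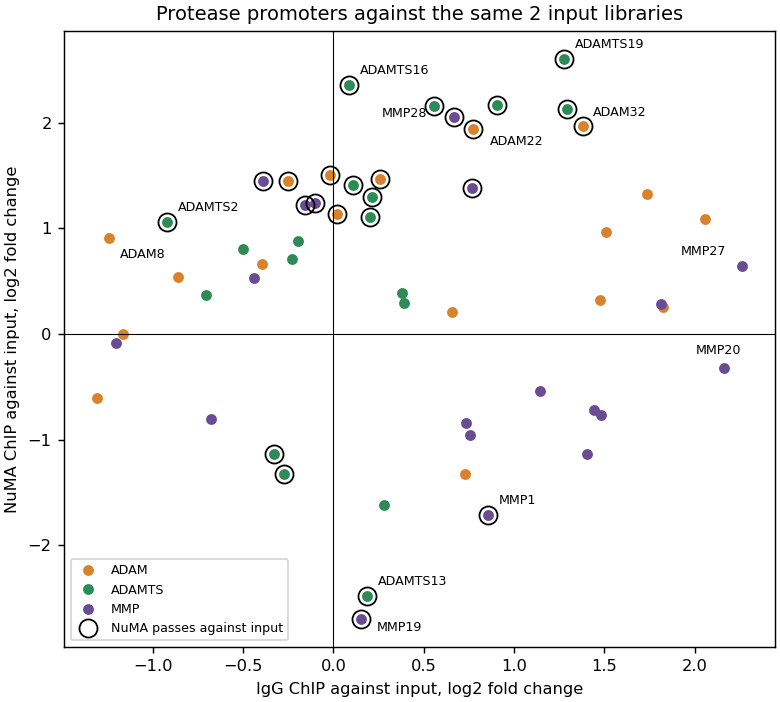
Log2 fold change of NuMA ChIP against input (y axis) and of IgG ChIP against the same 2 inputs (x axis) for the 56 tested members, with 1 point for each promoter coloured by family. Rings mark the 25 promoters at which NuMA ChIP passed against input, and the MMP promoters of chromosome 11 lie to the right of 0 on the IgG axis.

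Genes that act with these proteases were measured in the same libraries. Of 27 tested inhibitors, activators, partners and relatives, 5 were higher and 6 lower in NuMA ChIP against IgG, with a median log2 fold change of 0.08 that became -0.06 under total-count scaling. These are 18.5% and 22.2% of the list, near the 16.8% and 23.9% of all windows, so the values of its genes are given as a description. Without IgG replicate 2, 3 of 28 were higher and 1 lower, and under the scaling on distant signal 16 of 27 were higher and 0 lower (0 lower at an unadjusted p below 0.05). Under that scaling 48.1% of all windows were higher and 2.73% lower. Relative to each group's own input 0 passed in edgeR, against 1.16% higher and 2.35% lower of all windows. At an unadjusted p below 0.05 in that fit, 4 were higher and 2 lower. TIMP2, a secreted inhibitor of MMP enzymes, measured 144 and 137 CPM with the NuMA antibody and 52.2 and 49.1 with IgG, and was higher by 1.31 ± 0.41 (adjusted p = 0.00874). The plasminogen activators PLAU and PLAT were lower, by -2.28 ± 0.87 and -2.42 ± 0.83 (adjusted p = 0.0305 and 0.0170). FURIN, which removes the propeptide of many ADAM and ADAMTS enzymes, was lower by -1.49 ± 0.55 (adjusted p = 0.0255). Outside the member rule, the secreted relatives ADAMTSL3 and ADAMTSL2 stood at 1.34 ± 0.49 and -1.65 ± 0.40 (adjusted p = 0.0241 and 0.00107), in opposite directions. The calls of PLAU (-2.23), PLAT (-2.47), FURIN (-0.94) and ADAMTSL3 (1.20) were lost without IgG replicate 2, and those of PLAU (-2.03), PLAT (-2.08), ADAMTSL3 (1.80) and ADAMTSL2 (-0.92) without IgG replicate 1. PLAU (-2.79) and PLAT (-2.23) also did not pass without NuMA replicate 2. Without NuMA replicate 1, 0 of 29 tested genes of this list passed in either direction in edgeR, while 2 were higher and 3 lower at an unadjusted p below 0.05.

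Of 26 tested substrates, 9 were higher and 4 lower, with a median of 0.54, against 16.8% and 23.9% of all windows. Without NuMA replicate 1 the counts were 3 and 2, without IgG replicate 2 they were 5 and 4, and relative to each group's own input they were 0 and 1 of 27 in edgeR (5 and 2 at an unadjusted p below 0.05). For the fits without a library, the shares of all windows stand above beside the member counts. Relative to each group's own input, 1.16% of all windows were higher and 2.35% lower. NOTCH1, a receptor cut by ADAM10, measured 269 and 270.5 CPM with the NuMA antibody and 58.7 and 34.4 with IgG, and was higher by 2.35 ± 0.50 (adjusted p = 2.28e-04). VWF, the substrate of ADAMTS13, measured 22.5 and 27.0 CPM with the NuMA antibody and 132 and 110.5 with IgG, and was lower by -2.46 ± 0.42 (adjusted p = 7.81e-06), as ADAMTS13 itself was. TNF, the substrate of ADAM17, was lower by -2.63 ± 0.46 (adjusted p = 1.05e-05). COL1A1, whose propeptide ADAMTS2 removes, was lower by -1.11 ± 0.41 (adjusted p = 0.0259), a call lost without IgG replicate 1 (-0.64) or NuMA replicate 1 (-0.65) and a value that turned to 0.15 under the scaling on distant signal.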

How the data were processed

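The authors deposited raw promoter counts, whole numbers without normalization, for 19957 windows, and metagene tables of unscaled signal summed over genes, of which the deposited signal around start sites was used only for 1 alternative scaling. Per the submitters' processing notes BWA 0.7.17-r1188, bedtools, featureCounts and MACS2 were used on hg38, the tool behind each file is not named, and how read pairs were counted is not given in the sources used here. Windows carry Ensembl identifiers without symbols, and a window took the symbol of a protein-coding RefSeq gene (GRCh38.p14) on the same strand that starts no more than 1000 bp from the window's middle. By this rule symbols were given to 17334 windows (86.9%), and the member windows lay a median of 34 bp from that start. Symbols of close or duplicated genes are less certain.

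Counts were tested in edgeR 4.0.16 (R 4.3.3) over all windows, with TMM scaling, filterByExpr (minimum count 10), the quasi-likelihood F-test and Benjamini-Hochberg adjustment at 0.05. The fit of NuMA against IgG held the 4 pull-down libraries. The fit of either pull-down against the averaged inputs held all 6, with single inputs assumed to vary like the ChIP groups. Both fits had 2 residual degrees of freedom. SE is the log2 fold change divided by the square root of F. The 4-library fit has its own scaling, so its log2 fold changes lie a median of 0.17 below the log2 ratio of the mean CPM printed, which was scaled over 6 libraries.

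Alternatives were DESeq2 1.42.0, total-count and flank-signal scaling (the outermost 500 positions at each end of the start-site profile), no filter, a filter of 30 counts in every library of 1 group, leaving out single libraries, a replicate block, each group's own input, and windows that overlap no other. A planned split by CpG class was void, because only 54.39% of members had reference sequence and 80% were required.

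The members, gene lists, role groups and tests were chosen with earlier results of these data known. Named by rule were, in each family, the 3 largest calls without overlap in each direction, the extremes against IgG and input and at input level, 19 genes listed by name and all of the chromosome 11 stretch. Others complete their role group and were named after their values were seen.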

Additional observations from a re-analysis of the deposited data

How the results depend on the processing

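With the flank signal as the scale, NuMA against IgG kept 18 of 29 calls, and 31 members were higher and 3 lower (ADAM 11 and 0, ADAMTS 13 higher, MMP 7 and 2), with medians of 2.03, 2.20 and -0.30, because every window moves up with it. With DESeq2, 6 members were lower, ADAM gave 3 and 0 and MMP 5 lower. A filter of 30 counts in every library of 1 group left 34 members tested, 4 higher and 5 lower, against 8.56% and 20.2% of all windows. There were 1 higher ADAM, 2 higher ADAMTS and 1 higher and 2 lower MMP promoters, with medians of 0.44, 0.51 and 0.39. The sign of the MMP median turned. No promoter of the chromosome 11 stretch passed this filter, and neither did MMP16 and MMP19. The part of these losses in the turn was not tested. With each group relative to its own input, 4 of 29 calls were kept, and 2 were higher and 2 lower (ADAM 1 and 0, ADAMTS 1 and 1, MMP 0 and 1). The ADAM median was 0.56 with total-count scaling and 0.61 without a count filter.

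Leaving out 1 library gave 4 to 19 higher and 5 to 11 lower members: 1 to 6 and 0 to 2 in ADAM, 2 to 8 higher in ADAMTS, 1 to 5 and 3 to 8 in MMP. The medians ranged from 0.72 to 0.84, 0.47 to 1.24 and -2.15 to -0.33. A group left with 1 library is assumed to vary like the other. Of the 29 calls, 11 were kept without IgG replicate 2 and 10 without NuMA replicate 1.

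The replicate block kept 28 of 29 calls, losing MMP27. It gave 20 members higher and 13 lower, against 21.9% and 26.5% of all windows. There were 8 higher ADAMTS promoters, and the MMP median was -1.41. Same-numbered ChIP libraries deviated together with r = 0.18, but with 2 pairs the labels' numbers are not taken as a pairing.

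Against input, NuMA ChIP gave 11 higher and 2 lower with DESeq2, against 13.2% and 4.35% of all windows. With the flank signal it gave 12 and 2, against 10.8% and 3.97%. The higher calls were 11 with total counts (10.8% of all windows), 13 without a filter (11.9%) and 10 with its own input (10.8%). Leaving out a library gave 8 to 21 and 2 to 5. IgG ChIP gave 0 higher with DESeq2, total counts and its own input, where 0% of all windows were higher. With the flank signal it gave 0 higher and 4 lower, against 0.0464% and 4.76% of all windows. Of 418 refits of 36 named members, 301 stayed on their side of the threshold, which includes members that passed in neither fit. Of the others, 91 lost and 21 gained the threshold, and 5 changed sign: ADAM17 (-0.053, own input), ADAM32 (-0.17, the filter of 30 counts), ADAMTS12 (0.33) and ADAMTS4 (0.070) with the flank signal, and MMP27 (0.94 without IgG replicate 2, and down to -2.57 with other libraries left out). Where no reason is given, the cause was not tested. With 1 count worth up to 2.45 CPM, promoters such as MMP7, MMP10, MMP19 and ADAM28 rest on few counts.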
